A study of Drosophila melanogaster with 2 samples.

Results

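The genes described here are 9 genes of the ecdysone and juvenile hormone responses of Drosophila melanogaster: EcR, usp, tai, Eip75B, Eip74EF, br, ftz-f1, Eip93F and Kr-h1. They are 9 of 18164 annotated nuclear genes, and were named because peaks of these same lists fell at several of them. Every peak whose summit lay inside one of these genes, or within 1 kb of one of its transcription starts, was taken as a peak of that gene. The lists that chose the genes are also the lists measured, so the peaks are described and no test was made.

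The assay was chromatin immunoprecipitation with sequencing (ChIP-seq) of kay, the fly Fos protein, a leucine zipper factor that pairs with Jra to form AP-1. The flies were whole adult males of unknown age from 1 transgenic strain carrying kay with GFP at its C-terminal end, and the antibody was against GFP. There was 1 group with 2 biological replicates, numbered 1 and 3 in the labels, and chromatin was sonicated to between 200 and 800 bp. In whole flies, strong binding in a few cells and weak binding in many cannot be told apart, and no peak can be placed in a tissue.

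Ecdysone is the steroid hormone of moulting and metamorphosis. It binds a receptor made of EcR and usp, which acts with coactivators such as tai to switch on early genes (Eip75B, Eip74EF and br), whose products act on later genes. ftz-f1 and Eip93F serve at later steps of the cascade. Juvenile hormone acts through Met or gce to induce Kr-h1, a zinc finger repressor that holds back metamorphosis. In adults both hormones are best known for roles in reproduction.

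The deposited peaks on the dm6 build come in 4 lists. The optimal list passed the authors' irreproducible discovery rate (IDR) step and holds 199 peaks, 165 of them on the nuclear chromosomes. The pooled list, from both replicates together, has 4350 peaks, the replicate 1 list 2060 and the replicate 3 list 13835. The pooled list is labelled as peaks and background for input to IDR, so an entry in it need not be a bound place. A q-value of at most 0.05 was reached by 327 of its 4350 entries and by 9 of the 66 at the genes. In replicate 1 it was reached by 185 entries, 3 of them at the genes (2 at tai and 1 at Kr-h1). In replicate 3 it was reached by 478, 10 of them at the genes. All entries are called peaks below, whatever their q-value. Ranks run from 1 for the highest signal of a list, and signals were read only within their own list. Ranks from lists of different lengths are set side by side below and are not read as a change. The sources state no read depth.

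The sequences below carry the canonical AP-1 site, TGACTCA or TGAGTCA, in capitals. They are the sites within 100 bp of a pooled kay summit at these genes and, for Kr-h1, the site under its highest replicate 3 peak that has one. All are intronic or promoter sequence, 5′ to 3′ on the plus strand of the RefSeq Release 6 genome, and the number of base pairs to each summit is given where the peak is described.
Eip74EF intron, chr3L:17577848-17577876: cgacacgattaTGACTCAatgcaagtgta
ftz-f1 intron, chr3L:18759516-18759544: gctgcccccgcTGACTCAagtgatttaaa
Eip75B intron, chr3L:17994962-17994990: aatatgattagTGAGTCAgaataatatag
Kr-h1 promoter, chr2L:6091015-6091043: cgttgcatttaTGACTCAaatgctagaat

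None of those 4 copies lay within 100 bp of an optimal summit. The closest near-match under the highest Kr-h1 peak differed from the AP-1 site at 1 base. It is shown with the letters AGGTCA that lay near the summits of the Eip75B and ftz-f1 introns, again with the matched letters in capitals. A match of letters does not tell which factor binds there. The Eip75B AGGTCA is written on the minus strand and the others on the plus strand.
Kr-h1 intron near-match, chr2L:6088616-6088644: gctctctgcaaTGAGTAAgcaatgttgtt
Eip75B intron AGGTCA, chr3L:18044786-18044813: aaaaaagcacaAGGTCAttgagaagcgg
ftz-f1 intron AGGTCA, chr3L:18759359-18759386: cagtggaatctAGGTCAtgagcgcaaga

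Optimal peaks fell at 4 of the 9 genes, Kr-h1, tai, ftz-f1 and Eip75B, where 1.22% of all 13945 protein-coding genes had one by the same rule. Together these 4 genes held 7 of the 165 nuclear optimal peaks. Kr-h1, tai and ftz-f1 had 2 each, and 0.143% of protein-coding genes had 2 or more. EcR, Eip74EF, Eip93F, br and usp had none. In the pooled list 8 of the 9 genes had a peak, against 15.2% of protein-coding genes, and usp was the exception. All 8 had 2 or more, against 6.74% of protein-coding genes. The replicate 1 list had peaks at 7 genes (9.52% of protein-coding genes) and the replicate 3 list at 8 (34.7%). Since the genes were picked from these lists, these shares serve only as the scale on which to read the counts.

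Of the 9 genes, 7 are at least 50 kb long, and a long gene can catch more summits. Of the 307 protein-coding genes of at least 50 kb, 5.54% had an optimal and 55.4% a pooled summit, and the median number of pooled peaks was 1 with quartiles of 0 and 4. tai had 14 pooled peaks, and 5 of the 307 genes had more. ftz-f1 had 12, Eip93F 11, EcR and Eip74EF 8 each and Eip75B 7, all above the upper quartile of long genes. br had 2. Per 100 kb of gene and start window, the 9 genes held 11.6 pooled peaks, against 3.22 over the nuclear genome. The genome value also counts sequence between genes, and the 9 genes were picked from these lists.

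**Figure D1:**
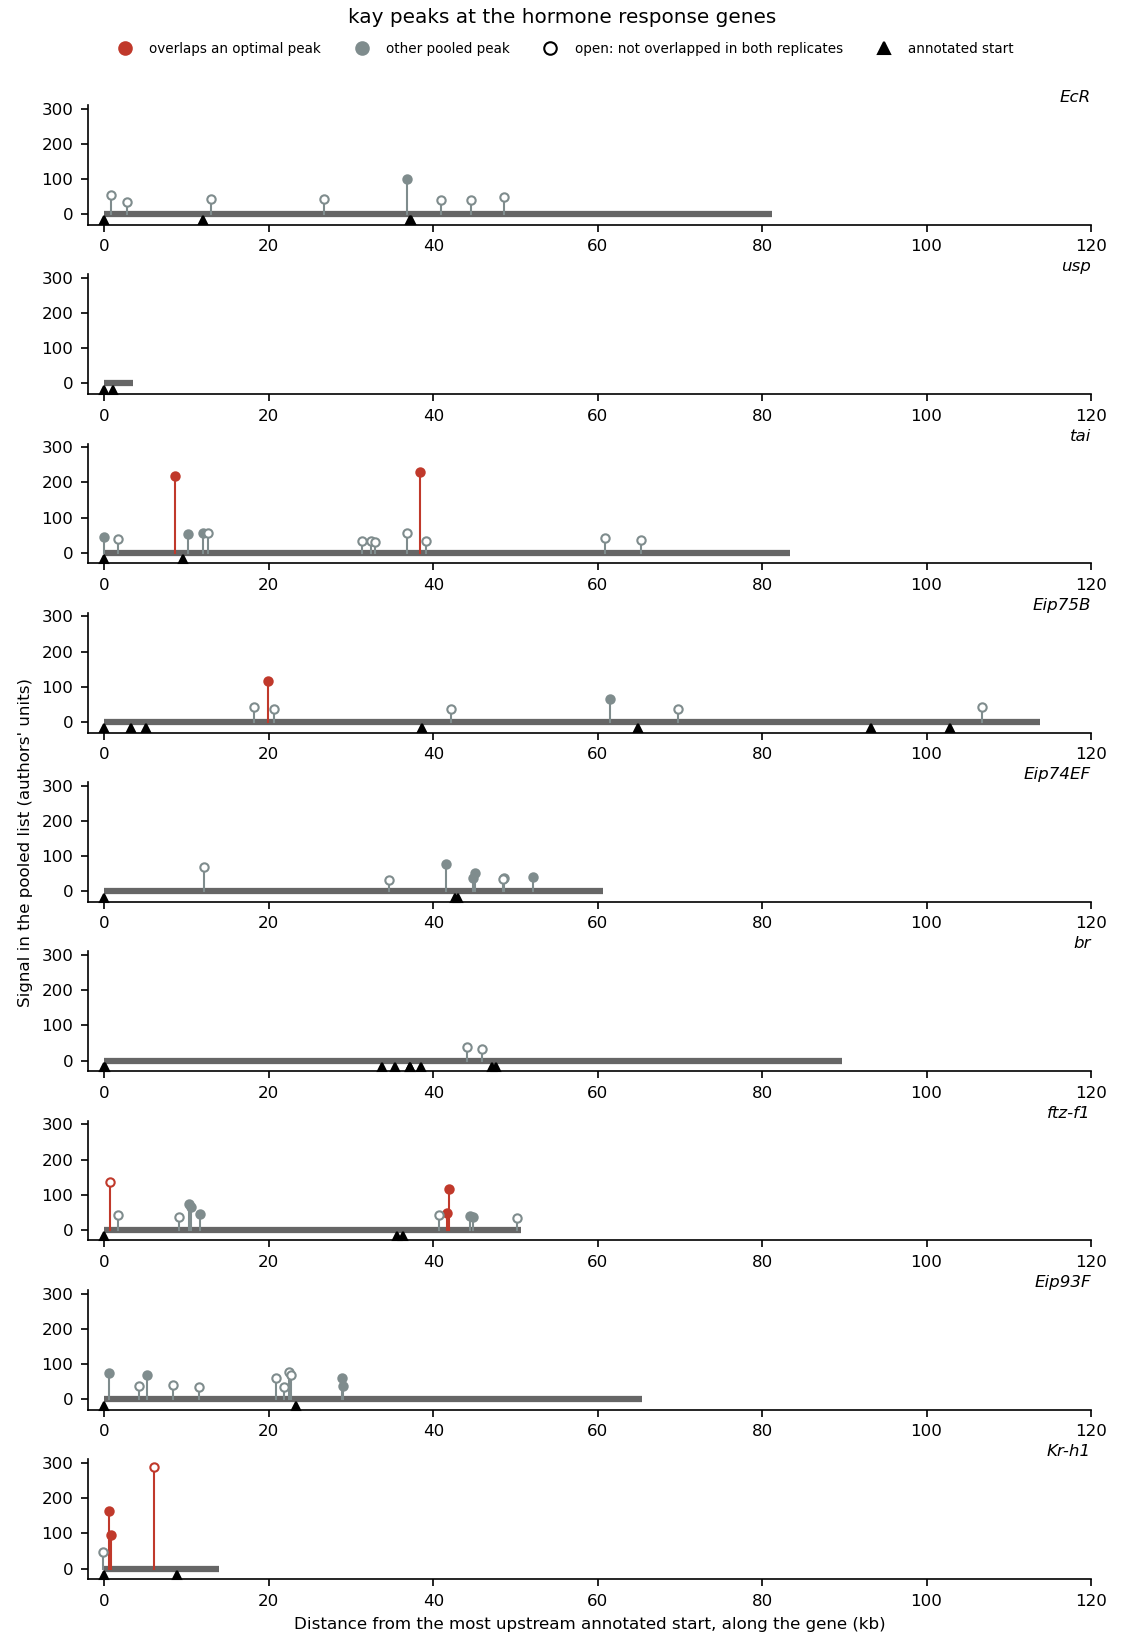
Pooled kay peaks along each of the 9 genes, with distance from the most upstream annotated start in kb on the x axis and the authors' pooled signal on the y axis. Red marks pooled peaks that overlap an optimal peak, open circles those not overlapped by a peak in both replicates, triangles the annotated starts; the highest signal is 289 in Kr-h1, and usp has no peak.

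EcR (FBgn0000546, chr2R:6087873-6169087, minus strand) encodes the hormone-binding part of the ecdysone receptor. Its highest pooled peak, chr2R:6132097-6132516, had a signal of 101 and rank 259. The summit lay 385 bp upstream of the shared start of the EcR-RB and EcR-RC transcripts, which is also within an intron of the longer EcR-RA. Both replicates listed this peak. It had rank 268, a signal of 44.7 and a q-value of 0.0838 in replicate 1. In replicate 3 it had rank 418, a signal of 54.8 and a q-value of 0.0442. It was the highest-ranked pooled peak of the 9 genes that is absent from the optimal list, whose lowest signal is 114. The other 7 pooled peaks of EcR ranked 1267 or lower and none of them was matched in replicate 1.

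usp (FBgn0003964, chrX:2038798-2042311, minus strand) encodes the partner of EcR and is the shortest of the genes at 3.51 kb. No list had a peak at usp, and the nearest pooled summit lay 80993 bp from the gene. Of the genes only usp and br are on the X chromosome, where peaks were sparser than on arms 2L, 2R, 3L and 3R. The optimal list had 0.051 peaks per 100 kb on X, against 0.128 to 0.162 on those arms. The pooled list had 1.97 on X, against 3.01 to 4.06. The flies were males, which carry a single X, and these densities were not adjusted for copy number. Whether copy number bears on the counts was not tested. The lists keep only peaks above the authors' minimum, so binding below that minimum would not appear in them.

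tai (FBgn0041092, chr2L:9166778-9250211, plus strand) encodes a coactivator of the p160 family that works with the ecdysone receptor. It held a pair of optimal peaks of nearly equal height. The first, chr2L:9204989-9205408, had a signal of 229 (rank 59) and lay in a 42174 bp intron, 28841 bp downstream of the start of tai-RC, tai-RE and tai-RF. It ranked 62 in replicate 1, with a signal of 109.7, and 65 in replicate 3, with a signal of 116. The other, chr2L:9175160-9175579, had a signal of 217 (rank 63) and lay 988 bp upstream of that same start, inside the first intron of tai-RD. It ranked 65 in replicate 1 (signal 107) and 73 in replicate 3 (signal 111). Summits of the 2 replicates fell within 2 bp of the optimal summit at both places.

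Eip75B (FBgn0000568, chr3L:17950953-18064696, minus strand) encodes a nuclear receptor that binds haem. Its 1 optimal peak, chr3L:18044634-18045053, had a signal of 116 (rank 191, q-value 0.0131), close to the bottom of the list. It lay in the first intron of Eip75B-RB, which spans 65240 bp, and 14754 bp downstream of the start of that transcript. CG42393, CG32192 and lncRNA:CR45922 have starts nearer to the summit, the nearest at 2111 bp, so the peak counts for Eip75B by lying in its body. It ranked 250 in replicate 1 (signal 46, q-value 0.0739) and 258 in replicate 3 (signal 66.4, q-value 0.00967). The AGGTCA printed above lay 44 bp from the optimal and replicate 3 summits and 21 bp from the replicate 1 summit. The next pooled peak, at rank 759, also had an AGGTCA, 95 bp from its summit.

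Eip74EF (FBgn0000567, chr3L:17558672-17619325, minus strand) encodes an ETS domain factor. Its highest pooled peak, chr3L:17577621-17578040, had a signal of 77.2 and rank 499, and lay 1205 bp upstream of the start of Eip74EF-RB. This peak holds the TGACTCA printed first above, 31 bp from the pooled summit, 9 bp from the replicate 1 summit and 7 bp from the replicate 3 summit. It was listed at rank 338 in replicate 1 (signal 40.5, q-value 0.129) and at rank 3438 in replicate 3 (signal 25.1). No peak of Eip74EF reached a q-value of 0.05 in any list. The highest Eip74EF peak in replicate 3, at rank 1360 with a signal of 36, lay in another intron and had no counterpart in replicate 1.

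The window of Eip74EF stops short of a far higher peak. An optimal peak at chr3L:17621351-17621770, with a signal of 213 and rank 64, has its summit 2236 bp upstream of the gene and 56 bp from the start of Vps60. It ranked 64 in replicate 1 and 82 in replicate 3. Eip75B has a like neighbour 3608 bp beyond its end, at rank 103 with a signal of 161, which is 355 bp from the start of lncRNA:CR45393. For the other 7 genes the nearest optimal summit outside the window was between 66578 and 1137772 bp away.

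br (FBgn0283451, chrX:1575132-1664869, plus strand) encodes the Broad family of zinc finger factors and has 16 annotated transcripts from 9 starts. It held only 2 pooled peaks, at ranks 2705 and 3991, with signals of 38.7 and 32.9. Both were listed in replicate 3, at ranks 2815 and 7288, and neither in replicate 1. Both also lie within Mur2B, a gene nested in br. The density of 2.2 pooled peaks per 100 kb was close to the 1.97 of the whole X chromosome.

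ftz-f1 (FBgn0001078, chr3L:18750607-18801309, minus strand) encodes an orphan nuclear receptor that makes prepupal tissues competent to respond to the later ecdysone pulse. It had 2 optimal peaks, of which 1 was listed in both replicates. The peak in the 5′ UTR of ftz-f1-RB, chr3L:18800404-18800823, had a signal of 135 (rank 138) and lay 695 bp downstream of the start of that transcript, within lncRNA:CR45939. It ranked 320 in replicate 3 with a signal of 61, and replicate 1 had no summit within 9811 bp. The peak in the intron, chr3L:18759172-18759591, had a signal of 116 (rank 196) and lay 5574 bp downstream of the start of ftz-f1-RA. The start of lncRNA:CR45938 is slightly nearer, at 5297 bp. This intronic peak was listed in both replicates. In replicate 1 it ranked 310 (signal 41.8, q-value 0.118) and in replicate 3 it ranked 189 (signal 74.3, q-value 0.00243).

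The intronic ftz-f1 peak is the 1 optimal peak of the genes with a canonical AP-1 site inside its interval. The TGACTCA printed above lay 148 bp from the optimal summit, 137 bp from the replicate 1 summit and 96 bp from the replicate 3 summit. The AGGTCA of the same peak lay 9 bp from the optimal summit. A second pooled peak there, at rank 1603, overlaps the first and has its own summit 56 bp from the TGACTCA.

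Eip93F (FBgn0264490, chr3R:21949114-22014539, plus strand) encodes a helix-turn-helix factor of adult specification and of cell death in metamorphosis. It had 11 pooled peaks and none in the optimal list. Its highest peak differed between the replicates. In replicate 3 it ranked 231, with a signal of 69, and lay 626 bp upstream of the start of Eip93F-RA and Eip93F-RC, where replicate 1 listed none. In replicate 1 it ranked 380, with a signal of 39, and lay 5175 bp downstream of the start of Eip93F-RB. Replicate 3 listed that place at rank 2538 with a signal of 28.4.

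Kr-h1 (FBgn0266450, chr2L:6082603-6096498, plus strand) encodes the juvenile hormone response factor and held the highest peak of the 9 genes. That peak, chr2L:6088422-6088841, had a signal of 289, rank 51 in the optimal list and rank 18 among its nuclear peaks. It lay in the 9254 bp first intron of Kr-h1-RA, 2780 bp upstream of the start of Kr-h1-RB. It ranked 44 in replicate 3 with a signal of 175. Replicate 1 listed no peak there, and its nearest summit was 5286 bp away.

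Of the 165 nuclear optimal peaks, 90.3% were overlapped by a replicate 1 peak and all 165 by a replicate 3 peak. The Kr-h1 intron was the highest of the 16 without one in replicate 1, and the ftz-f1 5′ UTR was number 10 of the 16. The other optimal peak of Kr-h1, chr2L:6082931-6083350, was listed in both replicates. It lay in the 5′ UTR of Kr-h1-RA, 538 bp downstream of the start, with a signal of 162 (rank 100). It ranked 85 in replicate 1 (signal 82.7) and 162 in replicate 3 (signal 79).

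**Figure D2:**
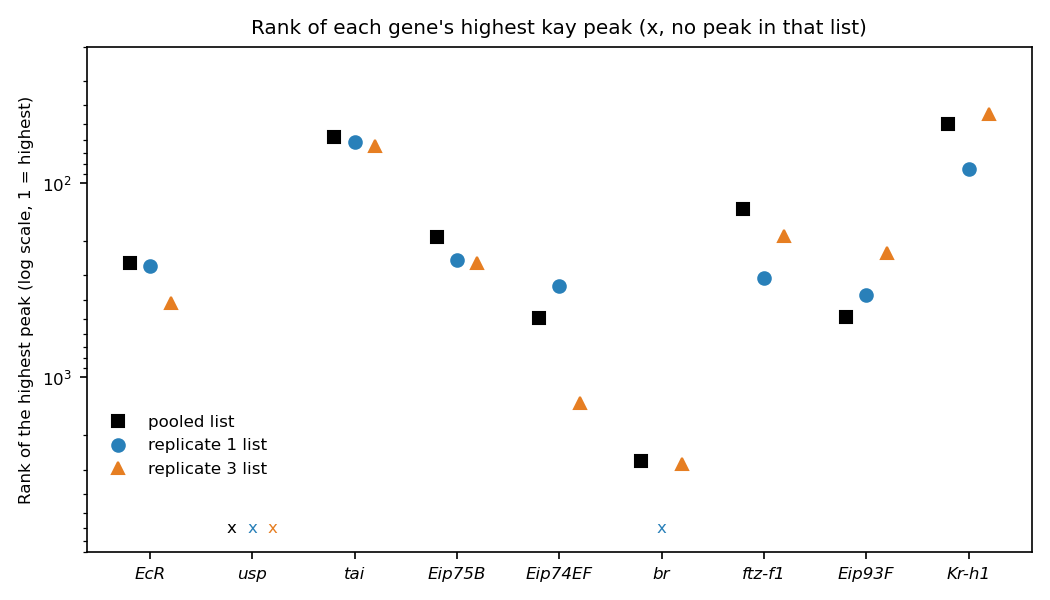
Rank of the highest peak of each gene in the pooled, replicate 1 and replicate 3 lists, on a log y axis with rank 1 at the top; an x marks a gene with no peak in that list. tai stays between 58 and 65 in the 3 lists, and Eip74EF is at 338 in replicate 1 and at 1360 in replicate 3.

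The replicates listed the same place as the highest peak in EcR, tai, Eip75B and ftz-f1, and different places in Kr-h1, Eip74EF and Eip93F. Of the 66 pooled peaks at the genes, 28 (42.4%, Wilson 95% interval 31.2 to 54.4) were overlapped by a replicate 1 peak and 63 (95.5%, 87.5 to 98.4) by a replicate 3 peak. The same shares over all nuclear pooled peaks were 43.6% and 94.1%. Both replicates listed 25 of the 66 (37.9%), against 39.7% of all nuclear pooled peaks. These intervals and the limits given for a count of 0 cover counting error only, and neighbouring peaks that overlap are not independent. The limits for a count of 0 are 3 divided by the number counted, which is rough for small numbers. The Wilson upper limit is 35.4% for 0 of 7 and 5.5% for 0 of 66. The 66 peaks merged into 58 separate intervals.

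**Figure D3:**
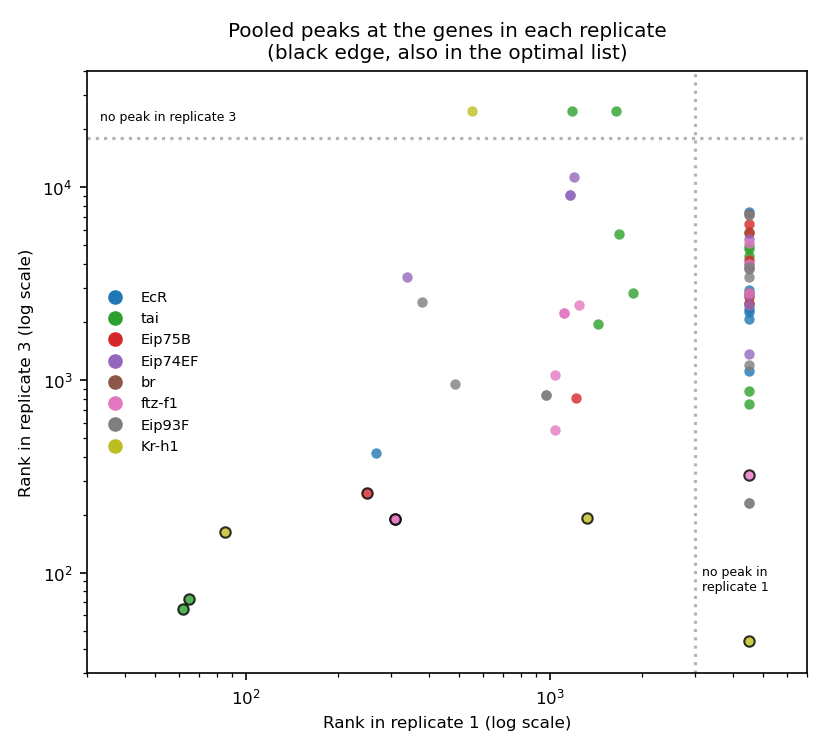
Each pooled peak at the genes by its rank in replicate 1 (x) and in replicate 3 (y), both on log axes, with peaks missing from a replicate set beyond the dotted lines; points with a black edge overlap an optimal peak. The tai pair sits at the lower left, at ranks 62 and 65 in replicate 1, and the highest Kr-h1 peak at the lower right, absent from replicate 1.

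Few peaks of these genes lay within 500 bp of a start. None of the 7 optimal summits was within 500 bp of any annotated start, which allows a share of up to 42.9%, against 51.5% of the nuclear optimal summits. The optimal summits were in introns in 5 cases (a pair at tai and 1 each at Eip75B, ftz-f1 and Kr-h1) and in 5′ UTRs in 2 (Kr-h1 and ftz-f1). Of the 66 pooled summits, 5 (7.58%, 3.28 to 16.5) were within 500 bp of any start, against 34.6% of nuclear pooled summits, and 57 (86.4%) were intronic. The intronic share of all nuclear summits was not counted, so the intronic counts have no scale here. Within 1 kb of any start were 3 of the 7 optimal summits (42.9%), against 67.3% of nuclear optimal summits. For pooled summits it was 15 of 66 (22.7%, 14.3 to 34.2), against 49.1%. The median distance from a pooled summit to any start was 3461 bp at the genes and 1056 bp over the nuclear list. The assignment rule counts summits anywhere in a gene, and these genes have long introns, so the rule itself admits many summits far from a start.

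The AP-1 site was counted where it lay wholly within 100 bp of a summit. In the optimal list 0 of the 7 peaks at the genes had it, which allows a share of up to 42.9%, against 23% of the 165 nuclear peaks. In the pooled list 3 of 66 had it (4.55%, 1.56 to 12.5), against 5.58% of nuclear peaks. Those 3 are the Eip74EF peak at rank 499, the lower ftz-f1 peak at rank 1603 and an Eip75B peak at rank 3125, whose TGAGTCA lay 35 bp from its summit. In replicate 1 the count was 1 of 28 (3.57%), against 7.36% of that list, and in replicate 3 it was 7 of 166 (4.22%), against 3.49%. The share at the genes was within its counting interval of the list's own share in the pooled list, and in the optimal list the limit of 42.9% is above 23%.

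The nearest AP-1 site to the optimal summits at the 5′ UTR of Kr-h1, upstream of tai-RC and in the intron of Eip75B was 976, 1048 and 1076 bp away. For the Kr-h1 intron, the other tai peak and the ftz-f1 5′ UTR it was over 2000 bp away. A 7-base stretch within 1 mismatch of the site was found under 3 of the 7 peaks, and under 58.8% of nuclear optimal peaks. The 3 were the intronic peaks of Kr-h1 and ftz-f1 and the tai peak of rank 59. The Kr-h1 near-match printed above was centred 2 bp from the summit. The closest match was 2 mismatches away at the tai peak of rank 63 and at the Kr-h1 and ftz-f1 5′ UTR peaks. At Eip75B it was 3.

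Other motifs were searched in the same windows, on both strands, after the peaks had been seen. AGGTCA was present in 5 of the 66 pooled peaks (7.58%, 3.28 to 16.5), 3 of them at Eip75B, 1 at ftz-f1 and 1 at br, against 3.75% of nuclear pooled peaks. In the optimal list it was in 2 of 7 peaks (28.6%, 8.22 to 64.1), against 5.45%. The palindromic ecdysone response element, searched as GGTCA and TGACC with 1 base between, was in none of the 66, which allows a share of up to 4.55%, and in none of the 4317 nuclear pooled peaks. Only these exact letters were searched, so imperfect copies of the element would be missed. The GAGA motif, GAGAGAG, was in 9 of 66 (13.6%, 7.34 to 23.9), against 6.12%, and 4 of those 9 were at tai. The E-box CACGTG was in 3 of 66 (4.55%), against 2.36%. The forkhead motif TGTTTAC was in 7 of 66 (10.6%), against 8.11%. TGANTCA, which includes both forms of the AP-1 site, was in 6 of 66 (9.09%), against 10.8%. TGACGTCA and TATCGATA, the CRE and DRE motifs, were in none, with the same limit of 4.55%, against 0.695% and 1.51%. The genes were picked from these lists, 9 motifs were searched and overlapping peaks are not independent. The intervals are therefore no test of any motif.

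**Figure D4:**
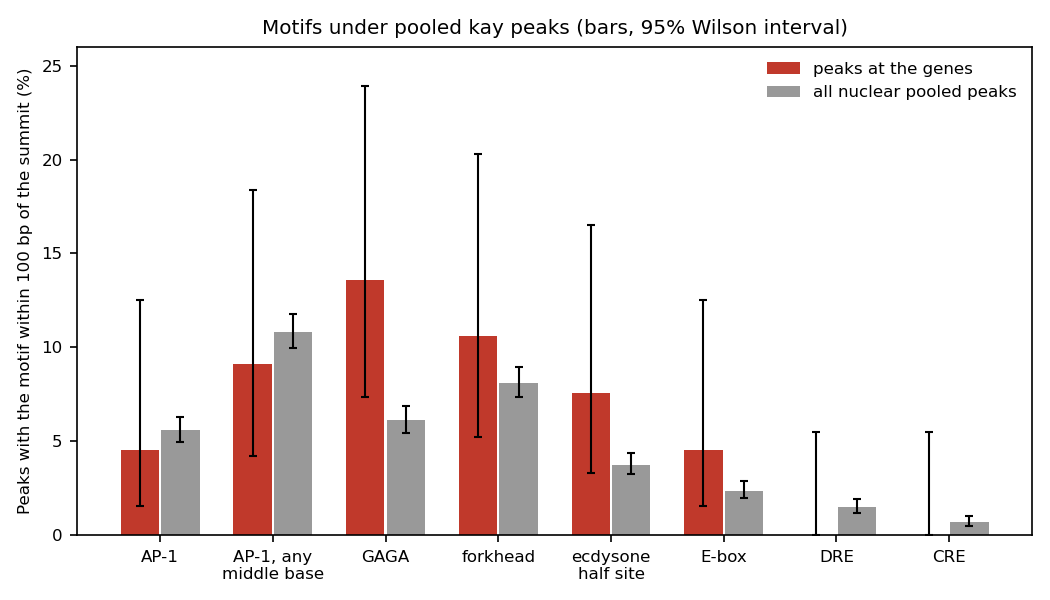
Share of pooled peaks with each motif within 100 bp of the summit, in percent, for the 66 peaks at the genes (red) and all 4317 nuclear pooled peaks (grey), with 95% Wilson intervals. The AP-1 bars are 4.55% and 5.58%, and the GAGA bars 13.6% and 6.12%. The bars with the ecdysone label count the letters AGGTCA alone.

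A group of 4 copies of the AP-1 site lies in the first intron of Kr-h1-RA, within 158 bp at chr2L:6084114-6084271, and was noticed after the values had been seen. It is shown because the nuclear genome has only 2 stretches with 4 or more copies within 200 bp, here and at Moe on the X chromosome. Capitals again mark the site, and the strand is plus.
Kr-h1 copy 1, chr2L:6084103-6084131: ctgtttcatggTGACTCAaagctcaatta
Kr-h1 copy 2, chr2L:6084139-6084167: aatcgacctttTGAGTCAtcatgacaata
Kr-h1 copy 3, chr2L:6084239-6084267: taagcattgggTGACTCAtgtgctggtga
Kr-h1 copy 4, chr2L:6084254-6084282: tcatgtgctggTGAGTCActtatttgggg

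No optimal, pooled or replicate 1 peak overlapped this group of sites. Replicate 3 listed a peak there at rank 7716, with a signal of 17.9 and a q-value of 0.768, and its summit lay 7 bp from the third copy. The stretch at Moe had no peak in any of the lists. The remaining AP-1 site of Kr-h1, in the promoter of Kr-h1-RB, lay 29 bp from a replicate 3 summit at rank 1634 with a signal of 33.6, which the pooled list did not hold.

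A wider list of 91 other hormone pathway genes was read by the same rule. It matched 89 annotated genes, 4 of them through a synonym, and phm and EcI were not analysed here. Optimal peaks fell at 2 of the 89 (2.25%, against 1.22% of protein-coding genes) and pooled peaks at 26 (29.2%, against 15.2%). Sox14, an ecdysone-induced gene of metamorphosis that encodes an HMG-box factor, had 2 overlapping optimal peaks in its promoter. The higher, chr2R:23978240-23978659, had a signal of 217 (rank 62), 351 bp upstream of the start, and ranked 78 in replicate 1 and 51 in replicate 3. The lower, chr2R:23978458-23978877, had a signal of 117 (rank 189), 133 bp upstream. It matched the same replicate 1 peak, at rank 78, and ranked 308 in replicate 3. vri, which encodes a leucine zipper factor, had 1, with a signal of 141 (rank 130), 236 bp upstream of its start, and replicates 1 and 3 ranked it 107 and 218. All optimal peaks of Sox14 and vri were in promoters, where the 9 genes had none.

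By role, pooled peaks were found at 10 of 24 early and other ecdysone-induced genes, led by Sox14, vri and MsrA (signal 97.6). They were found at 4 of 11 further nuclear receptors, led by Hnf4 (90.8), Hr39 (55.9) and Hr4 (38.4). Of 15 receptor cofactors, 5 had one, led by the corepressor Smr (90.3), the chaperone Hsc70-4 (77.6) and the corepressor Sin3A (71). Of 16 juvenile hormone genes, 4 had one, led by the hormone-degrading epoxide hydrolase Jheh1 (91.5), Chd64 (76.1) and the receptor gce (50.5). Of 5 cell death targets, hid alone had one (52.3). Of 19 genes of ecdysone synthesis, transport and breakdown, 2 had one, mld (45.2) and the importer Oatp74D (37.8). Apart from Sox14 and vri, the highest of these signals was the 97.6 of MsrA, below the 101 of the highest EcR peak.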

How the data were processed

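Peaks of kay-GFP ChIP-seq from 2 biological replicates, numbered 1 and 3, were read as deposited. The authors called peaks in each replicate and in the pool against 1 control file, and derived the optimal list by IDR, per the deposited file listing. The control was not analysed here. No source used here names the aligner, the peak caller, its settings or the IDR cutoff. For every peak there is the authors' deposited signal and a −log10 q-value, which was converted to a q-value. The lists on build dm3 were not used here. Read depth is unknown.

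Coordinates are 1-based on dm6. Genes and transcripts are from Ensembl release 115, without transposable elements, and sequence from RefSeq Release 6. A promoter summit lay within 500 bp of a start of its gene. Peaks of different lists were matched by an overlap of at least 1 bp. Motifs lay wholly within 100 bp of a summit. Scripts used Python 3.11.15, pandas 2.3.3 and numpy 2.4.6, and the site search and gene assignment were tested on simulated data.

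The 9 genes, the wider list and the alternatives were chosen with earlier results of these data known. All 9 genes are named, with every gene of the wider list that had an optimal peak and up to 3 per role with the highest pooled peak. The motifs other than the AP-1 forms, the AP-1 sites counted along genes, the comparison with long genes and the counts over equal numbers of peaks were added after the data had been seen.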

Additional observations from a re-analysis of the deposited data

How the results depend on the processing

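Counting only summits within 1 kb of a start, and leaving out gene bodies, lowered the optimal peaks at the genes from 7 to 3, the pooled peaks from 66 to 13 and the genes with a pooled peak from 8 to 5 (11% of protein-coding genes). The upper 50% of the optimal list kept 3 peaks at 2 genes (0.495% of protein-coding genes) and 1 of the other hormone genes. A q-value of at most 0.05 left 9 pooled peaks at 5 genes (2.14% of protein-coding genes), 0 of them with an AP-1 site. The AP-1 count in the optimal list rose from 0 to 1 when the site could lie within 250 bp of the summit (33.9% of nuclear peaks), and to 1 when it could lie anywhere in the peak (32.1%). TGANTCA gave 6 pooled peaks. A window of 500 bp or of 2 kb around starts moved no count by over 1.5 times.

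With the optimal list replaced by as many of the highest peaks of 1 replicate, the range over leaving out replicate 1 or replicate 3 was 3 to 6 peaks, 2 to 3 genes, 2 to 3 other hormone genes and 0 to 1 peaks with an AP-1 site. The lower peak and gene counts were those without replicate 3, where 1.25% of protein-coding genes had a peak, against 1.31% without replicate 1, and the AP-1 site is that of ftz-f1 without replicate 1. Taking as many nuclear peaks, an alternative chosen after seeing the data, gave the same ranges. For the pooled list the ranges were 28 to 63 peaks, 7 to 8 genes and 1 to 3 peaks with an AP-1 site, with the lower values again without replicate 3, whose removal leaves only the 2060 peaks of replicate 1 (9.52% of protein-coding genes, against 18.2% without replicate 1).

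No paired analysis was possible because there is 1 group and no contrast. Ranks include mitochondrial peaks. Among nuclear peaks alone, the best optimal ranks of Kr-h1 and tai were 18 and 26. The cause of differences between the replicate lists was not tested.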

Other observations

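The 9 genes and their start windows hold 70 AP-1 sites, 12.3 per 100 kb, and the nuclear genome holds 11142, 8.32 per 100 kb. Within 100 bp of a pooled summit lay 3 of the 70 (4.29%), against 2.21% of all sites, and within 100 bp of a replicate 3 summit 9 (12.9%), against 4.46%. For replicate 1 it was 1 (1.43%), against 1.4%, and for the optimal list 0, which allows up to 4.29%, against 0.35%. Peaks themselves were denser at the genes, which were picked from these lists. The nuclear densities below also count sequence between genes. Per 100 kb there were 11.6 pooled peaks against 3.22 over the nuclear genome, and 29.1 replicate 3 peaks against 10.3. The replicate 1 and optimal lists were denser there too, at 4.9 against 1.51 and 1.23 against 0.123. Whether peak density bears on the site shares was not tested, and the shares are not read as a property of the sites. tai has 15 sites, and none of them lay within 100 bp of a summit in any list. Kr-h1 has 5, of which 4 lay near a replicate 3 summit, and Eip75B has 18, of which 2 did.

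Equal numbers of the highest peaks of each replicate were also compared. Among the highest 200, replicate 1 had 3 peaks at 2 of the genes (1.26% of protein-coding genes) and replicate 3 had 6 at 3 (1.31%). Among the highest 500, replicate 1 had 9 at 7 genes (3.04%) and replicate 3 had 10 at 6 (3.46%). Among the highest 1000, replicate 1 had 14 at 7 genes (5.42%) and replicate 3 had 16 at 6 (6.25%). Among the highest 2060, replicate 1 had 28 (9.52%) and replicate 3 had 27 (11%), at 7 genes each. The percentages are shares of all protein-coding genes with a peak at the same cutoff, and the genes were chosen from these lists.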
